A study of Zea mays with 30 samples.

Results

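The 100 most abundant mRNAs of dry maize seeds were followed through imbibition in a fast-germinating and a slow-germinating inbred line. The members were chosen by TPM, a unit in which reads are divided by gene length and then scaled to the same sum in every library. TPM was averaged over the 6 dry-seed libraries, and the 100 highest of the 39005 genes in the tables were taken. The rule also left out 4 genes in advance, which ranked between 166 and 449 in dry seeds and would not have entered the list. Line 72-3 germinates fast and line F9721 slowly, and HAI stands for hours after imbibition. Whole seeds were sampled dry (0 HAI) and at 6, 12 and 24 HAI in both lines, and also at 36 and 48 HAI in F9721, with 3 libraries for each of the 10 groups and 30 in all. In the germination test of the paper, seeds were surface-sterilized with hydrogen peroxide, rinsed and kept on wet filter paper. Temperature and light were the same for both lines. Inbreds with no transgene are compared, and no agent was added beyond the sterilization. For each time point 5 seeds were taken and the replicates came from different ears, so that a library averages over several seeds of 1 inbred genotype and over embryo, endosperm and seed coat together.

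Mature seeds enter dormancy or quiescence with a store of mRNAs that were made during maturation and kept in the dry state. Such stored mRNAs are known in seeds of many species for storage proteins, for late embryogenesis abundant proteins that protect dry cells, and for the first translation after water uptake. During germination a part of this store is degraded while new transcripts are made. The files do not pair the identifiers of the members with gene names, and the RefSeq gene table at hand matched 0 of the 39005 identifiers, so the members are given by identifier and no role or sequence is attached to them.

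The libraries held 8080968 to 14192708 counts on genes. In 3 of the 30 libraries more genes stood apart from the other libraries of their group than elsewhere. In F9721 replicate 3 at 36 HAI, 399 genes were more than 4-fold below both other replicates, against 0 that were more than 4-fold above, counting genes of at least 10 TPM. In F9721 replicate 3 at 48 HAI the counts were 397 below and 3 above. The lists of low genes shared 292 genes, 73.2% of the first and 73.6% of the second. Among the members, 20 were in the first list and 12 in the second, and all 12 were in both. In 72-3 replicate 1 at 24 HAI, 160 genes were below and 183 above by the same measure, with none of the 100 members among them. In each of the other 27 libraries at most 42 genes were below and at most 89 above, again with no member. Values without these libraries are given below for the summed shares, the classes of members, the numbers of DEGs and some of the members that these libraries move.

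In dry seeds the members ranged from a mean of 48182 TPM for Zm00001d037988 to 1123 TPM for Zm00001d011735, with 2295 TPM at rank 50. These values chose the list and are a description. The last 5 members were Zm00001d017852, Zm00001d022513, Zm00001d003247, Zm00001d002360 and Zm00001d011735, at 1152, 1146, 1139, 1133 and 1123 TPM. The next 5 genes outside were Zm00001d017956, Zm00001d032519, Zm00001d031773, Zm00001d039566 and Zm00001d029349, at 1112, 1095, 1061, 1055 and 1051 TPM, so the border falls in a continuous range. The 100 genes that rank just below the list are therefore used below as the nearest comparison. Left out in turn, each dry-seed library changed at most 3 of the 100 members. Selection by CPM (counts scaled to the library total and not divided by gene length) shared 62 members with the list. The gene length can be read from the ratio of counts to TPM, relative to other genes. The members' median relative length was 0.281 of the median of the 24821 genes with a group mean of at least 1 TPM, and 93 of the 100 members were shorter than that median. The list is thus one of mostly short mRNAs, which TPM ranks higher than CPM does.

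The members took up about as much of the dry-seed mRNA in one line as in the other, slightly more in F9721. Their summed share of all TPM was 50.9%, 51.8% and 50.96% in the dry-seed libraries of 72-3 (mean 51.2% ± 0.514, SD, n = 3) and 54.7% ± 2.30 (SD, n = 3) in those of F9721. Without division by gene length they held 25.1% of the counts in 72-3 and 27.5% in F9721. The 10 highest members alone held 22.8% and 27.9% of all TPM. Within the list, however, single members differed between the lines. In 61 of 100 members the line means of dry seeds lay within 2-fold of each other, 8 members were more than 4-fold higher in 72-3 and 2 more than 4-fold higher in F9721. The rank correlation of the members' dry-seed levels between lines was 0.592 (Spearman, across 100 genes, which are not independent replicates). Of the 100 highest genes of 72-3 dry seeds 88 were members, and of those of F9721 84 were members.

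Among the first 5 members, Zm00001d037988 was at 49004, 48967 and 48123 TPM in the 3 dry libraries of 72-3 and 45917, 50638 and 46443 TPM in those of F9721, and the libraries of the lines overlapped. The second member, Zm00001d037894, was at 38228, 39624 and 35570.1 TPM in 72-3 and 42410.5, 41903 and 40685 TPM in F9721, slightly higher in F9721 without overlap. The third member, Zm00001d002768, was at 13164, 14266 and 11142 TPM in 72-3 and 57502, 56786 and 49989.9 TPM in F9721. It was the highest mRNA of F9721 dry seeds and was several-fold lower in every 72-3 library. The fifth member, Zm00001d039933, was likewise lower in 72-3, at 10348, 10297 and 10909 TPM against 34633, 41162 and 33733 TPM in F9721. The opposite order was seen for Zm00001d009700, at 10447, 10289.8 and 11217 TPM in 72-3 and 1532, 1659.8 and 1663 TPM in F9721, and for Zm00001d024303, at 23806, 23673 and 24414 TPM in 72-3 and 5884, 6578 and 4785 TPM in F9721. The identifiers Zm00001d024302 and Zm00001d024303 follow each other. Whether these genes are copies that share reads was not checked, and their separate values are uncertain for that reason.

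After water uptake the share of the list hardly moved until 6 HAI, and then fell in 72-3 first and in F9721 later. In 72-3 the members held 49.1% ± 1.998 of all TPM at 6 HAI, 35.3% ± 3.69 at 12 HAI and 9.35% ± 2.33 at 24 HAI (SD, n = 3 each). The 3 libraries at 12 HAI were at 31.0%, 37.0% and 37.8%, and those at 24 HAI at 11.3%, 9.93% and 6.78%. In F9721 the share was 53.8% ± 1.08 at 6 HAI and 46.7% ± 1.72 at 12 HAI (SD, n = 3 each). It dropped to 27.7% ± 1.504 by 24 HAI, to 12.9% ± 1.99 by 36 HAI and to 10.7% ± 0.403 by 48 HAI (SD, n = 3 each). The share at 24 HAI in 72-3 and those at 36 and 48 HAI in F9721 lie close together. The lines did not overlap at any time sampled in both, with every F9721 library above every 72-3 library. In dry seeds and at 6 HAI they were close. The highest 72-3 library was at 51.8% and 50.3%, and the lowest F9721 library at 52.2% and 52.9%. Leaving out replicate 1 at 24 HAI gave 8.35% in 72-3, and leaving out replicate 3 gave 14.0% at 36 HAI and 10.95% at 48 HAI in F9721. In CPM the shares were 25.1%, 16.6% and 4.46% at 6, 12 and 24 HAI in 72-3. A share of TPM falls both when these mRNAs are lost and when other mRNAs are gained, and the files hold no spike-in, so these cannot be told apart. In whole seeds, fewer cells of a type and less RNA per cell cannot be told apart either.

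**Figure D1:**
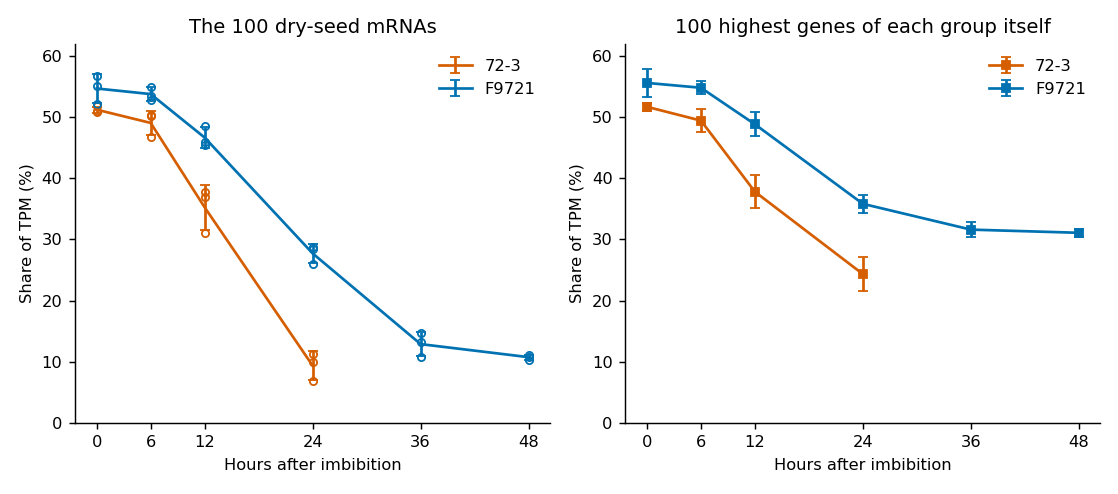
Share of all TPM (percent, vertical axis) against hours after imbibition (horizontal axis) in 72-3 and F9721. Left, the summed share of the 100 dry-seed mRNAs, with open circles for the 3 libraries of a group, and right, the share of the 100 highest genes of each group itself. Lines join group means and bars are SD. The share of the dry-seed list fell from 51.2% to 9.35% by 24 HAI in 72-3 and from 54.7% to 10.7% by 48 HAI in F9721, while the 100 highest genes of the last time point still held 24.3% and 31.1%.

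The list was replaced at the top more slowly than its share fell. In 72-3, 89, 75 and 25 of the members were among the 100 highest genes at 6, 12 and 24 HAI. The numbers for F9721 were 84, 75, 48, 27 and 23 at 6, 12, 24, 36 and 48 HAI. All of the 10 highest genes were members through 12 HAI in 72-3 and through 24 HAI in F9721. After that 3 of the 10 highest genes were members at 24 HAI in 72-3, and 5 and 4 at 36 and 48 HAI in F9721. The 100 highest genes of each group, whichever they were, held less of the total as time went on, down from 51.7% in dry seeds to 24.3% by 24 HAI for 72-3 and from 55.6% to 31.1% by 48 HAI for F9721. The number of genes with a group mean of at least 1 TPM was 18310 in dry seeds and 21723 at the last time point of 72-3, and 18140 and 21095 in the same order for F9721. The members' median rank was 50.5 at 6 HAI in both lines. It was 61.5 at 12 HAI and 649 at 24 HAI in 72-3, and 54, 106.5, 364 and 700.5 at 12, 24, 36 and 48 HAI in F9721.

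The members did not share a single fate. At 24 HAI in 72-3, 68 of 100 were at or below 0.25 of their dry-seed mean, 15 were between 0.25 and 0.5, 14 between 0.5 and 2, and 3 above 2 times that mean. At 48 HAI in F9721 the same classes held 70, 5, 18 and 7 members. Without the libraries that stand apart, 71 members in 72-3 and 68 in F9721 were at or below 0.25 at these times. The median ratio to dry seeds was 0.958, 0.655 and 0.0729 at 6, 12 and 24 HAI in 72-3, and 0.953, 0.810, 0.442, 0.105 and 0.0488 at 6, 12, 24, 36 and 48 HAI in F9721. At 6 HAI 99 of 100 members stayed between 0.5 and 2 times their dry-seed mean in either line. So did 98 of the 100 genes ranked just below the list in each line. Of the other genes with at least 1 TPM in dry seeds, 17149 of 18210 in 72-3 and 16939 of 18040 in F9721 did so. The members were thus near other genes in this. The first time at which a member was at or below 0.5 was 12 HAI for 18 and 24 HAI for 65 members in 72-3, and 17 never reached it. In F9721 it was 12 HAI for 3, 24 HAI for 54, 36 HAI for 17 and 48 HAI for 1, and 25 never reached it. By the last time point the 100 genes ranked just below the list fell less. There 57 and 54 of 100 were at or below 0.25 in 72-3 and F9721, with median ratios of 0.181 and 0.177. Earlier the order was mixed. At 12 HAI 25 of them against 18 members were at or below 0.5 in 72-3, with medians of 0.700 and 0.655. In F9721 these were 10 against 3, with medians of 0.775 and 0.810. At 24 HAI in F9721, 10 against 6 were at or below 0.25, and 46 against 57 at or below 0.5. Of the remaining genes with at least 1 TPM in dry seeds, 8.13% of 18210 in 72-3 and 9.002% of 18040 in F9721 were at or below 0.25. Their median ratios were 1.40 and 1.49 in TPM. The sum of TPM is fixed, so these ratios go up as the share of the list goes down. They do not by themselves show a gain of the other mRNAs. All ratios to dry seeds use the values that chose the list, so they are given with no test. The class borders depend on the unit at 24 HAI in F9721, where 6 members were at or below 0.25 in TPM and 21 in TMM-scaled CPM.

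**Figure D2:**
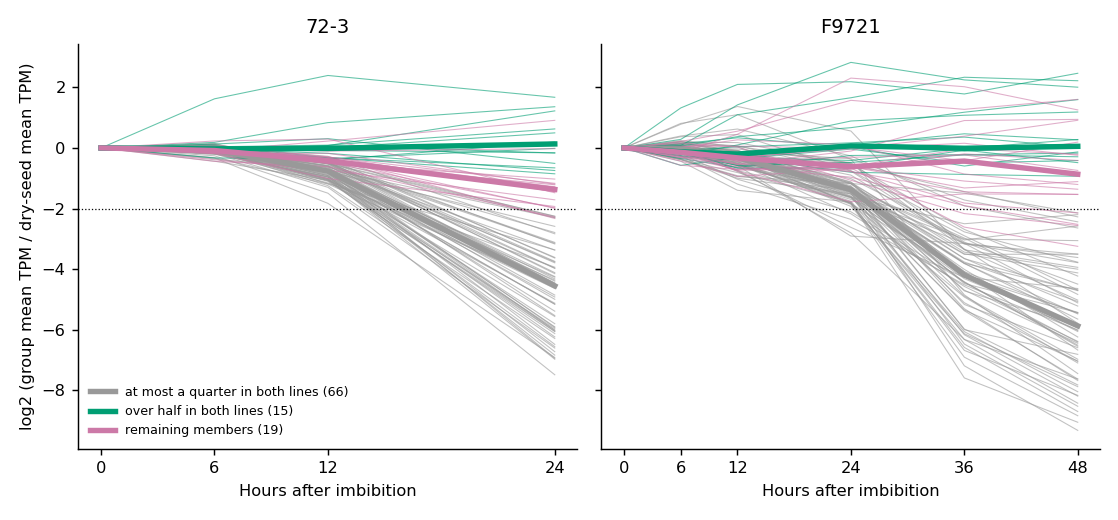
Log2 of the ratio of group mean TPM to the dry-seed mean (vertical axis) against hours after imbibition (horizontal axis) for each of the 100 members, in 72-3 (left) and F9721 (right). Thin lines are members, thick lines the medians of the 66 members at or below 0.25 of the dry-seed level in both lines at the last time point, the 15 above 0.5 in both and the remaining 19, and the dotted line marks 0.25. The medians of the groups stay close together to 6 HAI. They are apart from 12 HAI in 72-3 and from 24 HAI in F9721.

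By the last time point of each line, 66 of the members were at or below 0.25 of the dry-seed level in both lines, 15 were above 0.5 in both, and 19 did neither. The 66 made up most of the fall of the share. They went from 40.6% to 2.37% of all TPM in 72-3 by 24 HAI and from 46.1% to 2.32% in F9721 by 48 HAI. In F9721 they still held 19.6% at 24 HAI and 4.82% at 36 HAI. The 15 were at 3.83% in dry seeds and 4.45% at the end for 72-3, and at 4.01% and 6.06% for F9721. The 19 others went from 6.85% to 2.52% and from 4.56% to 2.36%. The groups were defined by these last time points, so their values there are a description fixed by that choice. The summed TPM of the 66 was 10.6 ± 0.440 times that of the 15 in dry seeds of 72-3 and 0.516 ± 0.198 times at 24 HAI (SD, n = 3 each), with 6.14 ± 1.05 at 12 HAI between them. In F9721 it went from 11.5 ± 0.803 to 8.78 ± 0.828 at 12 HAI and 3.83 ± 0.452 at 24 HAI (SD, n = 3 each). It was down to 0.887 ± 0.413 by 36 HAI and to 0.391 ± 0.174 by 48 HAI (SD, n = 3 each). Of the 10 highest members 9 were among the 66, as were 11 of ranks 11 to 25, 21 of ranks 26 to 50, 11 of ranks 51 to 75 and 14 of ranks 76 to 100. The median relative length was 0.277 for the 66 and 0.146 for the 15. Without replicate 1 at 24 HAI of 72-3 and replicate 3 at 48 HAI of F9721 the classes held 66, 14 and 20 members. The ratio of the sums at the last time point was then 0.415 for 72-3 and 0.491 for F9721. It was 1.12 at 36 HAI in F9721 without replicate 3. The 15 depend on the unit. In TMM-scaled CPM all 66 stayed at or below 0.25 in both lines, while 10 of the 15 stayed above 0.5 in both. From 6 HAI, 3 of the 15, Zm00001d008620, Zm00001d033210 and Zm00001d030725, were called lower in at least 1 line with the threshold at 1 on the log2 scale.

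The ranking within the list was lost with the fall. The members' levels at 6 HAI followed those in dry seeds with a rank correlation of 0.972 in 72-3 and 0.981 in F9721 (Spearman, across 100 genes). In 72-3 this value was 0.881 after 12 h and 0.244 after 24 h. For F9721 it was 0.938, 0.749, 0.321 and 0.181 at 12, 24, 36 and 48 HAI. Across lines, the members' levels at 24 HAI in 72-3 correlated by 0.544 with those of F9721 at the same hour, by 0.885 with those at 36 HAI and by 0.914 with those at 48 HAI. Without the libraries that stand apart these values were 0.537, 0.865 and 0.908. These are correlations across genes of different libraries, which share gene length and the choice of the list.

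The change after 6 HAI was tested, since the rule used no library after 0 HAI. Counts were fitted by edgeR's quasi-likelihood method, and a differentially expressed gene (DEG) needed an adjusted p no higher than 0.01 and a log2 fold change of 2 or more in either direction. Between 6 and 12 HAI in 72-3, edgeR called 0 of the members, where 1.51% of the 34746 genes tested were DEGs, 509 higher and 15 lower. DESeq2 also called 0. In edgeR 77 members had an unadjusted p under 0.05, against 30.5% of all genes tested, and 98 had a negative log2 fold change. With the fold threshold set at 1 on the log2 scale, 29 members fell, against 1.89% of all genes. This number was 8 without replicate 1 at 12 HAI, 12 without replicate 1 at 6 HAI, 7 without TMM scaling and 44 in a fit of the 2 groups alone. The median log2 fold change of the members was -0.98, against a median of 0 for all genes tested. Replicate 1 at 12 HAI was the lowest of its group for 65 of the 66 members that later fell in both lines.

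Among the members that fell at 12 HAI were Zm00001d027740, Zm00001d016128 and Zm00001d013384. The mRNA Zm00001d027740, at rank 63, was at 1776, 1255 and 1465 TPM at 6 HAI and 464, 691 and 755 TPM at 12 HAI in 72-3. Its log2 fold change was -1.63 ± 0.26 (SE, edgeR adjusted p = 2.9e-05). For Zm00001d016128 the libraries went from 4263, 3346 and 3484 TPM to 1141, 2137 and 1677 TPM. That is a log2 fold change of -1.56 ± 0.28 (SE, edgeR adjusted p = 0.00012). For Zm00001d013384 they went from 3156, 2804 and 3366 TPM to 1115, 1701 and 1504 TPM, or -1.504 ± 0.24 on the log2 scale (SE, edgeR adjusted p = 3.9e-05). In all 3 cases no library at 12 HAI reached the lowest library at 6 HAI.

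Between 6 and 24 HAI in 72-3, 73 of the 100 members fell as DEGs, against 7.34% of all genes tested that were lower. The members' median log2 fold change was -4.47, with a range from -7.90 to 0.58. With the fold threshold set at 1 on the log2 scale, 85 members were lower, against 14.6% of all genes. The highest log2 fold change, 0.58 ± 0.21 (SE, edgeR adjusted p = 0.019), was that of Zm00001d003247, which did not pass. The most abundant member, Zm00001d037988, was at 49557, 44090.2 and 47738 TPM at 6 HAI, 34385, 37002 and 43453 TPM at 12 HAI and 6091, 3933 and 1745 TPM at 24 HAI. The 24 HAI libraries lay far below those at 12 HAI but differed severalfold among themselves. The log2 fold change from 6 to 24 HAI was -4.22 ± 0.35 (SE, edgeR adjusted p = 1.2e-11). The fourth member, Zm00001d044022, went from 21435, 18742 and 21212 TPM at 6 HAI to 257, 230.1 and 132 TPM at 24 HAI. The log2 fold change was -7.28 ± 0.38 (SE, edgeR adjusted p = 6e-16). The lowest fold change of the list was that of Zm00001d027740, which ended at 9.39, 14.1 and 6.51 TPM, -7.90 ± 0.35 on the log2 scale (SE, edgeR adjusted p = 1.2e-17). The eighth member, Zm00001d024302, fell less, and was still at 4609, 3509.6 and 2154 TPM at 24 HAI after 16892, 15531 and 18454 TPM at 6 HAI. This is a log2 fold change of -2.95 ± 0.27 (SE, edgeR adjusted p = 1.2e-10). Without replicate 1 at 24 HAI 80 members were called. Scaling by library totals without TMM moved the median log2 fold change of all genes tested from 0 to 0.23 in this comparison and turned the split over all genes from 3641 higher and 2549 lower into 4799 higher and 1921 lower.

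In F9721 the members moved later. From 6 to 12 HAI edgeR called 0 of the members at either fold threshold, where 0.849% of all genes were DEGs and 2.69% passed with the threshold at 1 on the log2 scale. DESeq2 called 0 DEGs as well. In edgeR 21 members had an unadjusted p under 0.05, against 22.9% of all genes tested. From 6 to 24 HAI 23 members fell as DEGs, against 2.1% of all genes that were lower, with a median log2 fold change of -1.61. With the fold threshold set at 1 on the log2 scale, 61 members were lower, against 8.55% of all genes, and 2 were higher, against 11% of all genes. The 23 became 13 when libraries were scaled by their totals without TMM and the median of all genes tested went from 0 to 0.084. From 6 to 48 HAI 72 members fell as DEGs, against 8.86% of all genes that were lower, with a median of -5.17 and a range from -10.16 to 1.34. With the threshold at 1, 80 members were lower, against 16.2% of all genes. Without replicate 3 at 48 HAI 72 were called too. These comparisons share the 6 HAI libraries of F9721.

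The time course of single members in F9721 shows the later fall. At 6, 24 and 36 HAI Zm00001d037988 was at 48479, 42207 and 42114 TPM, 26069, 24514 and 20332 TPM and 7376, 7393 and 4401 TPM. It ended at 2123, 1986 and 1434 TPM at 48 HAI, a log2 fold change of -5.37 ± 0.37 from 6 HAI (SE, edgeR adjusted p = 1.6e-13). The mRNA Zm00001d016128, at rank 35, went from 3936, 3488 and 3493 TPM at 6 HAI to 677, 341 and 516 TPM at 24 HAI. With -3.30 ± 0.30 on the log2 scale (SE, edgeR adjusted p = 3e-10) it was one of the 23 DEGs at this time. The sixteenth member, Zm00001d026037, had the lowest fold change at 48 HAI. It was at 8622, 12271 and 11034 TPM at 6 HAI, 78.1, 107 and 25.7 TPM at 36 HAI and 18.9, 18.1 and 11.2 TPM at 48 HAI. Its log2 fold change from 6 to 48 HAI was -10.16 ± 0.45 (SE, edgeR adjusted p = 1e-17), and -9.93 without replicate 3 at 48 HAI. In contrast, Zm00001d002768, the highest mRNA of F9721 dry seeds, was kept longer. It was at 39765, 40536 and 33372 TPM at 24 HAI, 23814, 28903 and 7818 TPM at 36 HAI and 14305, 14511 and 5113 TPM at 48 HAI, with replicate 3 far below the others at both late times. Its log2 fold change from 6 to 48 HAI was -3.16 ± 0.44 (SE, edgeR adjusted p = 2.8e-07) and -2.79 without replicate 3 at 48 HAI. At the limit of detection in that group stood Zm00001d024414 in replicate 3 at 48 HAI, with 0 counts. This library is among those that stand apart, and replicates 1 and 2 had 7 and 22 counts. The other libraries of that group were at 3.59 and 9.40 TPM, after 667, 1616 and 1691 TPM at 6 HAI. Only 6 pairs of member and library had 3 counts or fewer, and 70 members had at least 100 counts in every library.

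**Figure D3:**
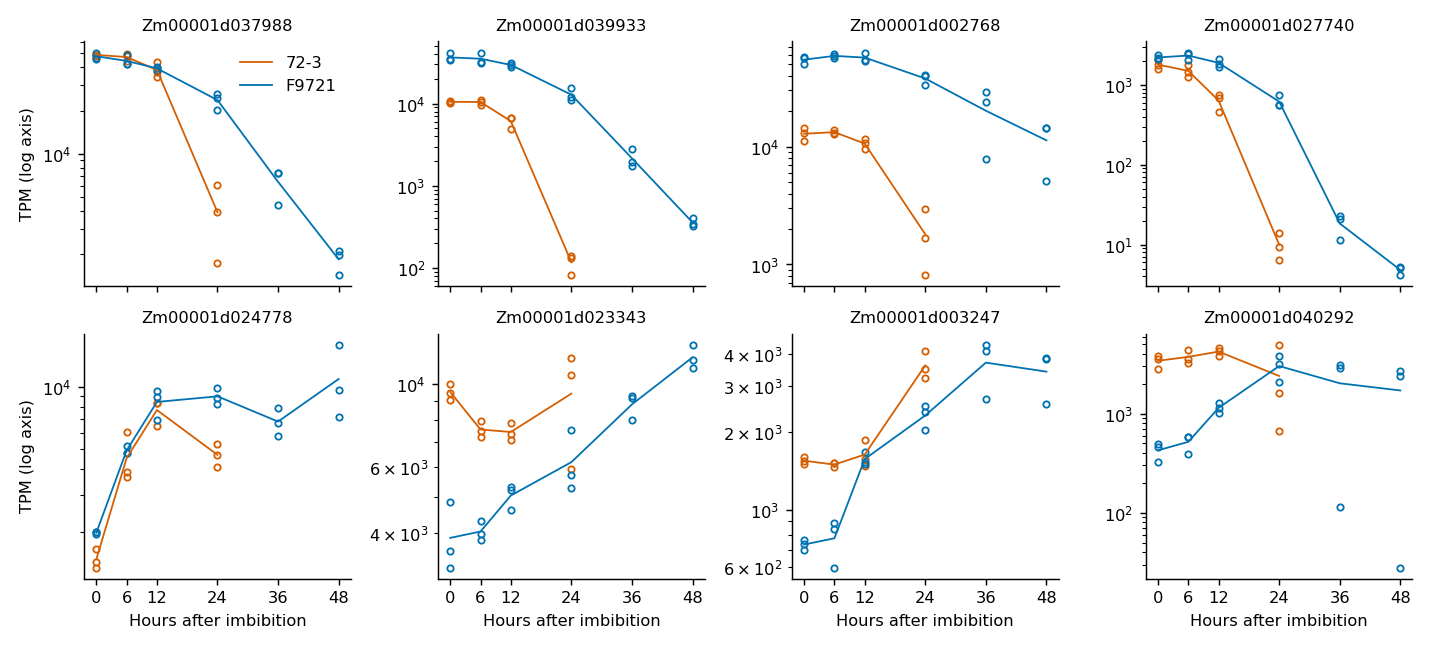
TPM on a log axis (vertical) against hours after imbibition (horizontal) for 8 members, with an open circle for each library and lines through the group means of 72-3 and F9721. Each panel has its own vertical range. In the top row Zm00001d037988, Zm00001d039933, Zm00001d002768 and Zm00001d027740 fell in both lines, later in F9721. In the bottom row Zm00001d024778, Zm00001d023343 and Zm00001d003247 did not fall below their dry-seed level in F9721, and Zm00001d040292 shows replicate 3 at 36 and 48 HAI of F9721 far below the other libraries.

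The members that fell were largely the same in both lines at their last time points. Of the 73 DEGs lower at 24 HAI in 72-3 and the 72 lower at 48 HAI in F9721, 71 were shared, 97.3% of the first list and 98.6% of the second. These comparisons have no library in common. Without replicate 1 at 24 HAI of 72-3 and replicate 3 at 48 HAI of F9721 the lists held 80 and 72 members and shared 72. In 72-3 alone Zm00001d016705 and Zm00001d026632 were called, and in F9721 alone Zm00001d003190. The mRNA Zm00001d016705 was at 2532, 2083 and 2337 TPM at 6 HAI and 1256, 494 and 199 TPM at 24 HAI in 72-3, a log2 fold change of -2.44 ± 0.38 (SE, edgeR adjusted p = 2.6e-06). Without replicate 3 at 24 HAI it was -1.99, short of the fold threshold. In F9721 it went from 109.9, 113 and 109.8 TPM at 6 HAI to 549, 582 and 698 TPM at 24 HAI. There it rose by 1.99 ± 0.38 on the log2 scale (SE, edgeR adjusted p = 8.1e-05). The interaction of line and time for Zm00001d016705, -4.44 ± 0.54 (SE, edgeR adjusted p = 2.4e-07), was past both thresholds. For Zm00001d003190 the libraries went from 6817, 7785 and 8504 TPM at 6 HAI to 3119.5, 4068 and 2051 TPM at 24 HAI in 72-3 and from 4675, 4812 and 3991 TPM at 6 HAI to 1171, 1869.9 and 1852 TPM at 48 HAI in F9721. Its fold changes were -1.98 and -2.26 on the log2 scale, so that it lay near the threshold in both lines. The numbers of DEGs count a threshold, and the difference between lines was not tested for these last time points.

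**Figure D4:**
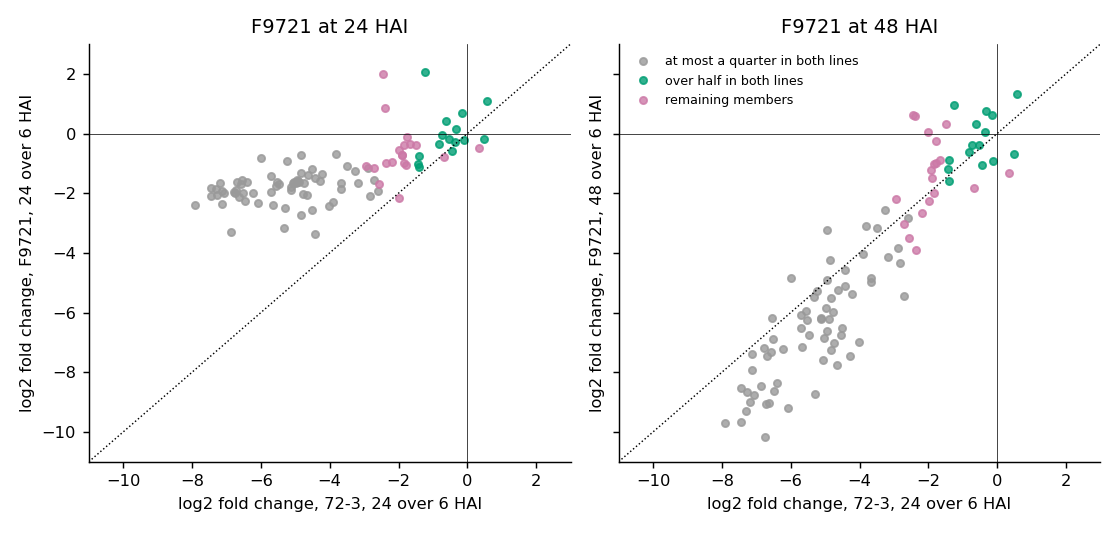
Log2 fold change of each of the 100 members from 6 to 24 HAI in 72-3 (horizontal axis) against that in F9721 (vertical axis) from 6 to 24 HAI (left) and from 6 to 48 HAI (right), from edgeR, with the dotted line where both are equal. Colours mark the 66 members at or below 0.25 of the dry-seed level in both lines, the 15 above 0.5 in both and the remaining 19. At 24 HAI most of the 66 lie above the dotted line, at smaller falls in F9721, and at 48 HAI they lie around and below it.

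Compared between the lines at the same hour, the members went from a mixed picture to mostly lower values in 72-3. At 6 HAI 5 members were DEGs higher in 72-3 and 2 higher in F9721, against 5.51% and 5.85% of all genes tested, so the list was not far from all genes. At 12 HAI 1 member was higher in 72-3 and 13 were lower, against 6.86% and 6.49% of all genes. At 24 HAI 63 members were lower in 72-3, against 8.57% of all genes. With the threshold at 1 on the log2 scale, 11 members were higher and 16 lower in 72-3 at 6 HAI, against 3330 and 3490 of the 34746 genes tested. At 12 HAI these were 7 and 36 members, against 3879 and 3802 genes. At 24 HAI they were 2 and 73 members, against 5515 and 5076 genes. The median log2 difference between 72-3 and F9721 was -0.17, -0.72 and -2.77 at these 3 times. At 24 HAI the highest value in the list was 1.96 ± 0.27 (SE) for Zm00001d011080, with an edgeR adjusted p of 3.4e-07, just short of the fold threshold. This member was at 4123, 4759 and 2039 TPM in 72-3 and 471, 793 and 866 TPM in F9721 at 24 HAI, without overlap. Without replicate 1 at 24 HAI of 72-3, 64 members were called.

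**Figure D5:**
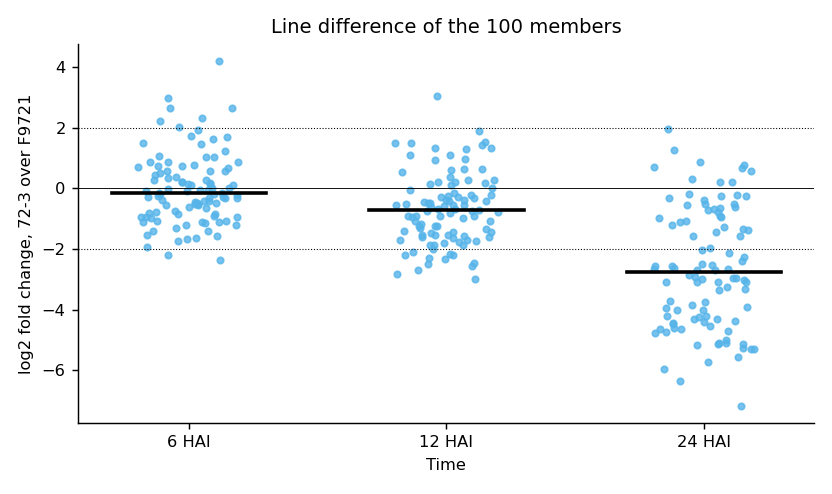
Log2 fold change of 72-3 over F9721 (vertical axis, edgeR) for each of the 100 members at 6, 12 and 24 HAI (horizontal axis, points spread sideways for legibility). Black bars are the medians, -0.17, -0.72 and -2.77, and dotted lines mark the fold threshold of 2 on the log2 scale.

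Whether the change from 6 to 24 HAI itself differed between the lines was tested by the interaction of line and time. It was past both thresholds for 58 members, all negative, which means a lower change in 72-3 than in F9721, against 3.46% of all genes with a negative interaction. The median over the members was -2.83 on the log2 scale, with a range from -5.62 to 0.83. All 58 were DEGs lower at 24 HAI in 72-3, and 17 of them were also DEGs lower at 24 HAI in F9721. The fifth member, Zm00001d039933, was at 11193, 9665 and 10542 TPM at 6 HAI and 140.1, 131 and 81.9 TPM at 24 HAI in 72-3. The F9721 libraries were at 41882, 32496 and 31244 TPM at 6 HAI, 15391, 12149 and 10935 TPM at 24 HAI and 322, 409.6 and 343 TPM at 48 HAI. From 6 to 24 HAI it fell by 7.13 ± 0.31 on the log2 scale in 72-3 (SE, edgeR adjusted p = 9.8e-18) and by 1.91 ± 0.24 in F9721 (SE, edgeR adjusted p = 1.7e-07). The interaction was -5.22 ± 0.35 (SE, edgeR adjusted p = 4.1e-12). For Zm00001d017990 the 24 HAI libraries were at 32.3, 31.9 and 22.3 TPM in 72-3 and 1106, 828 and 658 TPM in F9721, after 1918, 1490.3 and 1628 TPM and 3146, 2195 and 2236 TPM at 6 HAI. The interaction was -4.53 ± 0.31 (SE, edgeR adjusted p = 6.3e-12). The second member, Zm00001d037894, had an interaction of -2.61 ± 0.63 (SE, edgeR adjusted p = 0.0019) and Zm00001d024303 one of -1.81 ± 0.71 (SE, edgeR adjusted p = 0.058), which did not pass. The interaction uses the same 6 and 24 HAI libraries as the comparisons within the lines.

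Part of the list already differed between the lines at 6 HAI. Among the members given here, this difference lasted for some and was gone at 24 HAI for others. The mRNA Zm00001d008620, at rank 23, was at 2401, 2082 and 2309 TPM in 72-3 and 10488, 8496 and 8542 TPM in F9721 at 6 HAI. At 24 HAI it was at 1122, 1676 and 1344 TPM and 5452, 6795 and 4992 TPM. Its log2 difference between 72-3 and F9721 was -2.21 ± 0.20, -2.56 ± 0.20 and -2.49 ± 0.20 at 6, 12 and 24 HAI (SE, edgeR adjusted p = 2.3e-10, 1.2e-11 and 1.5e-11). The interaction, -0.28 ± 0.27 (SE, edgeR adjusted p = 0.56), did not pass. The mRNA Zm00001d009700, at rank 24, was higher in 72-3 at 6 HAI, at 10802, 9112 and 11768 TPM against 1434, 1531 and 1399 TPM in F9721, a log2 difference of 2.66 ± 0.26 (SE, edgeR adjusted p = 1.2e-09). At 24 HAI it was at 804, 508 and 287 TPM against 632, 691 and 623 TPM, and the log2 difference was -0.66 ± 0.25 (SE, edgeR adjusted p = 0.027). Similarly, Zm00001d026632 was at 2529, 2208 and 2222 TPM in 72-3 and 119, 347 and 285 TPM in F9721 at 6 HAI, a log2 difference of 2.98 ± 0.37 (SE, edgeR adjusted p = 1.3e-07). At 24 HAI its libraries, 1258, 290.3 and 520.0 TPM and 639, 615 and 669 TPM, overlapped.

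A few members did not go down with the rest of the list. Of the 100, 13 were not called lower with the threshold at 1 on the log2 scale at the last time point of either line. The absence of a call does not show a constant level, and the 13 include Zm00001d040292 and Zm00001d012068, whose libraries disagree. The mRNA Zm00001d024778, at rank 69, was at 1428, 1339.6 and 1646 TPM in dry seeds of 72-3, 3871, 6038 and 3673 TPM at 6 HAI, 8389, 6481 and 8304 TPM at 12 HAI and 5321, 4662 and 4087 TPM at 24 HAI. In F9721 it was at 1946, 1983 and 1996 TPM in dry seeds, 5188, 4804 and 4805 TPM at 6 HAI, 8971, 6879 and 9496 TPM at 12 HAI and 9642, 7174 and 15894 TPM at 48 HAI. It was the single member above 2 times its dry-seed mean at 6 HAI in both lines. After 6 HAI its log2 fold changes were -0.62 ± 0.22 at 24 HAI in 72-3 (SE, edgeR adjusted p = 0.017) and 0.33 ± 0.22 at 48 HAI in F9721 (SE, edgeR adjusted p = 0.22), and neither passed. At 24 HAI it was lower in 72-3 than in F9721 by a log2 difference of -1.35 ± 0.22 (SE, edgeR adjusted p = 6.1e-06), short of the fold threshold for a DEG. The mRNA Zm00001d003247, at rank 98, was at 597, 842 and 887 TPM at 6 HAI, 2524, 2023 and 2389 TPM at 24 HAI and 3814, 3867 and 2557 TPM at 48 HAI in F9721. From 6 to 48 HAI its log2 fold change was 1.34 ± 0.21 (SE, edgeR adjusted p = 2.3e-06). It was the single member with a log2 fold change of at least 1 that passed in this direction, against 18.3% of all genes tested. The mRNA Zm00001d023343, at rank 21, was at 7220.4, 7963 and 7485 TPM at 6 HAI and 10578, 11739.9 and 5919.6 TPM at 24 HAI in 72-3. In F9721 it went from 3843, 4313 and 3983 TPM at 6 HAI to 11011, 12672 and 11586 TPM at 48 HAI. Its log2 fold change was -0.34 ± 0.23 in 72-3 (SE, edgeR adjusted p = 0.24) and 0.74 ± 0.23 in F9721 (SE, edgeR adjusted p = 0.0074). The fold changes come from TMM-scaled counts and can differ in size and sign from the TPM beside them. For Zm00001d023343 the ratio of 24 HAI to dry seeds in 72-3 was 0.990 in TPM and 0.650 in TMM-scaled CPM. For Zm00001d024778 it was 3.19 and 2.07.

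A few members cannot be placed because their libraries disagree. The mRNA Zm00001d040292, at rank 65, was at 458, 324 and 498 TPM in dry seeds of F9721, 2103, 3188 and 3779 TPM at 24 HAI, 2865, 3097 and 114 TPM at 36 HAI and 2724, 2391 and 27.9 TPM at 48 HAI. Replicate 3 was at 0.0382 of the mean of the other libraries at 36 HAI and at 0.0109 of it at 48 HAI. The ratio of the 48 HAI mean to dry seeds was 4.02 with all libraries and 5.99 without replicate 3. In 72-3 its 24 HAI libraries also spread, from 672 to 4923 TPM. From 6 to 48 HAI in F9721 its log2 fold change was 0.95 ± 0.81 (SE, edgeR adjusted p = 0.37), and 1.52 without replicate 3 at 48 HAI. The mRNA Zm00001d012068, at rank 87, was at 360.2, 585 and 562 TPM at 24 HAI, 522, 569.9 and 7.91 TPM at 36 HAI and 779, 901 and 5.55 TPM at 48 HAI in F9721, so that replicate 3 alone was low. Its log2 fold change from 6 to 48 HAI was -0.24 ± 0.77 (SE, edgeR adjusted p = 0.89). Without replicate 3 at 48 HAI the sign turned, to 0.34. In 72-3 it went from 2224, 2482 and 2166 TPM in dry seeds to 924, 1275 and 761 TPM at 24 HAI.

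The spread between replicates was largest at the late times, and there the same library was low for most of the falling members. The median coefficient of variation of a member's TPM was 5.49%, 8.17%, 12.8% and 39.0% at 0, 6, 12 and 24 HAI in 72-3. In F9721 it was 10.4% in dry seeds, between 8.00% and 11.4% from 6 to 24 HAI, and 30.9% and 26.8% at 36 and 48 HAI. At 24 HAI in 72-3, replicate 3 was the lowest library for 63 of the 66 members that fell in both lines, with a median of 0.538 of the group mean, and replicate 1 the highest for 57 of them, with a median of 1.41. For the 15 members above 0.5 in both lines by TPM, replicate 3 was the lowest for 8. At 36 HAI in F9721, replicate 3 was the lowest for 58 of the 66, with a median of 0.564 of the group mean, and at 48 HAI for 50 of them, with a median of 0.664. What sets these libraries apart was not tested.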

How the data were processed

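RNA from whole germinating seeds was sequenced in 30 libraries, 3 for each of 10 combinations of line and time. Reads were cleaned with fastp, mapped on B73 AGPv4 by Hisat2 and assigned to genes by HTSeq (union mode), all by the authors. They deposited counts per gene without normalization. The authors also deposited TPM, made in R, and the gene lengths, tool versions and strand setting are not given in the sources used here. Reads on several genes are set aside by this counting, so genes with a near-identical copy, an overlapping neighbour or an antisense neighbour are uncertain. Lines that name no gene held 7.40% to 22.8% of the tallied reads per library and were left out. The 30 tables of single libraries equal the series table.

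Members and lists were chosen with earlier results of these data known. The rule used dry-seed TPM, so values against dry seeds carry no test. Shares, ranks and ratios come from TPM, without a pseudocount or filter. Tests used edgeR 4.0.16 in R 4.3.3 with TMM scaling, 10 group means over all 30 libraries, the 34746 genes with at least 1 read, and Benjamini-Hochberg adjustment over all of them. DEGs met an adjusted p no higher than 0.01 and a log2 fold change of 2 or more in either direction. Depth was 8080968 to 14192708 counts, and 3 counts were taken as the limit of detection. No pair of replicates was alike within counting noise (lowest chi-square per gene 2.26). On simulated counts of 34095 genes, edgeR called 100 of 100 genes changed by 3 on the log2 scale for 72-3 at 24 against 6 HAI and 98 of 100 for the interaction. At a change of 1.5, 86 and 35 of 100 had an adjusted p of at most 0.01. The simulation gave all genes and groups the same spread and changed no gene of low counts. In the data the members' median coefficient of variation was 39.0% at 24 HAI in 72-3, the largest of all groups. These numbers are thus a check of the code and not the power in these data.

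Named members are the 10 highest, those next to the border, up to 4 per comparison and direction with the smallest p among DEGs whose libraries do not overlap (without that condition for the interaction), and the 3 extremes per line in ratio to dry seeds and in the dry-seed difference between lines. The members Zm00001d003190, Zm00001d012068, Zm00001d023343 and Zm00001d024414 were named after their values were seen. Replicate numbers are shared by all groups without stated meaning beyond the ear. Among the pairs of groups that were tested, deviations of same-numbered libraries correlated above 0.1 for every replicate only for F9721 at 24 and 6 HAI (0.196, 0.152 and 0.106). The pair of F9721 at 36 and 48 HAI, whose replicate 3 libraries share 292 low genes, was not checked in this way. Alternatives were DESeq2 1.42.0, its size factors, library totals, filterByExpr, the replicate block, only the groups compared, CPM in place of TPM, other choices of members and each library left out. Shares without the 10 highest members and the comparison of single libraries with the others of their group were chosen after seeing the data. Gene classes, promoters and sequences were not used here.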

Additional observations from a re-analysis of the deposited data

Results flagged for a closer look

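The change from 6 to 24 HAI differed between the lines, by the test of the interaction itself in edgeR, for 58 of the 100 members. Among the members named, the interaction on the log2 scale was -5.22 for Zm00001d039933, -4.53 for Zm00001d017990, -5.51 for Zm00001d027740 and -5.08 for Zm00001d013384. All 3 libraries of 72-3 were below all 3 of F9721 at 24 HAI for each of these 4 members. This held for 81 of the 100 members in TMM-scaled CPM, and the share over all genes was not counted. The 4 have the smallest p of the interaction, which uses these libraries, so this order is a description. At 6 HAI the libraries of 72-3 were already below those of F9721 for Zm00001d039933, Zm00001d017990 and Zm00001d027740. At 24 HAI in 72-3, replicate 3 was the lowest library for 63 of the 66 members that fell in both lines, and the interaction was past both thresholds for 54 members without it and for 63 without replicate 1.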

How the results depend on the processing

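The numbers of DEGs among the members stayed within 1.5 times of the main value under DESeq2, its size factors in edgeR, filterByExpr, the fit on only the groups compared and the replicate block. With the replicate block the counts were 75 for 72-3 at 24 HAI, 23 and 73 for F9721 at 24 and 48 HAI, 7, 13 and 64 between the lines at 6, 12 and 24 HAI and 59 for the interaction, and no count moved past that limit with the block. Library totals without TMM gave 13 in place of 23 DEGs for F9721 at 24 HAI. They took the median log2 fold change of all genes tested from 0 to 0.19 and 0.23 at 12 and 24 HAI in 72-3, to 0.084 and 0.12 at 24 and 48 HAI in F9721 and to 0.19 and 0.036 between the lines at 12 and 24 HAI. With 1 library left out at a time, the count for 72-3 at 12 HAI was 0 to 1. Members at or below 0.25 of dry seeds at 12 HAI in 72-3 numbered 0 to 1 with a library left out and 1 in TMM-scaled CPM. In F9721 at 24 HAI they numbered 21 in TMM-scaled CPM in place of 6. At or below 0.5 of dry seeds were 18 members at 12 HAI in 72-3, and 3 and 57 at 12 and 24 HAI in F9721. In CPM, the summed share of the members was 25.1%, 25.1%, 16.6% and 4.46% at 0, 6, 12 and 24 HAI in 72-3, and 27.5%, 27.6%, 23.2%, 12.3%, 5.79% and 5.00% at 0 to 48 HAI in F9721. Members chosen by CPM held a summed share of all TPM of 46.2%, 43.8% and 30.9% at 0, 6 and 12 HAI in 72-3. In F9721 this share of TPM was 51.2%, 50.0%, 42.4%, 24.4% and 9.32% at 0, 6, 12, 24 and 48 HAI. The 10 highest members of the main list were also taken out of both the sum and the total, an alternative chosen after seeing the data. The share of TPM of the main list was then 36.8%, 34.6% and 22.7% at 0, 6 and 12 HAI in 72-3. In F9721 it was 37.2%, 36.3%, 29.8%, 16.9%, 9.34% and 8.90% at 0 to 48 HAI. Among the 100 highest genes, 58 and 15 of the members chosen by CPM were found in 72-3 at 6 and 24 HAI, and 16 of the main members in F9721 at 36 HAI when genes were ranked by CPM. The fall of the share with time was seen under each of these choices. Depth limits the 6 values of 3 counts or fewer, all in F9721 at 36 and 48 HAI.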
